A study of Mus musculus with 8 samples.

Results

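The 10 genes described here, Selenop, Adgre1, Hpgd, Cd5l, Marco, Folr2, Cd163, Vsig4, Clec4f and Timd4, are markers of Kupffer cells, the macrophages that live in the sinusoids of the liver. They were taken by gene symbol from the deposited count table. All 10 are among its 15336 genes, and 9 had enough counts to be tested. RNA came from Ly6Chi monocytes, inflammatory cells recruited from blood to sites of damage, sorted out of liver tissue of 8 C57BL/6 mice, all male and aged 8 weeks. Each mouse had been fasted for 12 h and given 300 mg/kg acetaminophen into the peritoneum, and livers were taken 24 h later. The 4 COMMD10-deficient mice are labelled LysMDCommd10 (mice 5, 6, 12 and 13), and the 4 control mice Commd10fl/fl (mice 2, 3, 10 and 11). LysM is lysozyme M, and Cre lines driven by its gene, Lyz2, delete floxed alleles in monocytes, macrophages, Kupffer cells included, and neutrophils. The groups share the floxed Commd10 alleles, the drug and the strain, and no group analysed here carried the Cre with intact Commd10, so the Cre itself and the loss of COMMD10 cannot be told apart. Each library came from 1 animal.

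Kupffer cells clear bacteria, dead cells and worn-out red cells from portal blood, and their markers follow these tasks. In acetaminophen injury resident Kupffer cells become scarce while monocytes enter the necrotic areas and mature into macrophages. Such monocyte-derived macrophages carry F4/80, the product of Adgre1, and can take on Clec4f and later Timd4 when they settle in an emptied niche. The genes of the list therefore differ in how specific they are. In the mouse Clec4f is close to private to Kupffer cells, Timd4 and Vsig4 mark resident macrophages, and Adgre1 is carried by macrophages of most tissues. Selenop is in addition a major hepatocyte transcript.

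The libraries held 13327665 to 15759224 counts. Animal names come in 2 styles of writing, which part a lower-numbered label set (deficient 5 and 6, controls 2 and 3) from a higher-numbered one (deficient 12 and 13, controls 10 and 11). The labels do not say what parts the sets. The first principal component of log2 CPM (counts scaled to library size) held 60.5% of the variance, and what it separates was not tested. Genotypes were compared with the label set in the model, because earlier results of these data parted the animals by it more than by genotype. Commd10 stood at 8.74 to 17.0 CPM in deficient animals and 24.5 to 29.8 CPM in controls. The cre transgene had 37 to 122 counts in deficient animals and 0 in each control, where up to 3 counts (0.225 CPM) cannot be told from 0. Lyz2, the gene that drives the Cre, stood at 7333, 5597, 2847 and 315 CPM in deficient mice 5, 6, 12 and 13. In controls Lyz2 stood at 8869 to 16341 CPM. Deficient mouse 13 was also the lowest for Commd10, at 8.74 CPM. Among genes of the sorted population, Ly6c2 was at 212 to 296 CPM in deficient animals and 229.98 to 355 CPM in controls, and the chemokine receptor gene Ccr2 at 1052 to 1560.4 CPM and 1337 to 1725 CPM. The 7 members other than Selenop, Adgre1 and Hpgd summed to only 15.7 to 17.5 CPM in deficient animals and 11.9 to 22.7 CPM in controls.

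Of the members that fell in the test below, 4 have an entry in the RefSeq promoter table (GRCm38.p6). Their 250 bases before the transcription start are printed here, because these genes were called lower in that test. The RefSeq starts differ from the gene positions given below, which come from another annotation. The Selenop windows lie inside the Selenop position, and the Clec4f window overlaps that of Clec4f. The choice rests on those calls, so the sequences are no evidence for them. Capitals mark matches, on either strand, to 5 motifs of macrophage or core promoters: the core GAGGAA bound by PU.1 and other ETS factors (TTCCTC on the other strand), the MAF half-site TGCTGA (read as TCAGCA on the other strand), the AP-1 site TGANTCA, the E-box CACGTG, and TATAAA, the motif of the TATA box.
Hpgd, chr8:56294302-56294551, plus strand: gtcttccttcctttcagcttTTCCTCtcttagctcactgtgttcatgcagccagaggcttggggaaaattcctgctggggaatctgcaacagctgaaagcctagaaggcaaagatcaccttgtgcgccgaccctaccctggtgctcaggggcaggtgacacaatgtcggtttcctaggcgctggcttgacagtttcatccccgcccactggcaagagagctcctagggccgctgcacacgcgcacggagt
Selenop, most upstream start, chr15:3270517-3270766, plus strand: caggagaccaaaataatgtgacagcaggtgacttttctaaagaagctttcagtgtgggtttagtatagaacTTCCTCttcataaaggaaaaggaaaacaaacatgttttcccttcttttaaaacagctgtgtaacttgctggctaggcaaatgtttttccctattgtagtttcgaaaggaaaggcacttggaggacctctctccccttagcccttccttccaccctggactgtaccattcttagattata
Selenop, most downstream start, chr15:3270727-3270976, plus strand: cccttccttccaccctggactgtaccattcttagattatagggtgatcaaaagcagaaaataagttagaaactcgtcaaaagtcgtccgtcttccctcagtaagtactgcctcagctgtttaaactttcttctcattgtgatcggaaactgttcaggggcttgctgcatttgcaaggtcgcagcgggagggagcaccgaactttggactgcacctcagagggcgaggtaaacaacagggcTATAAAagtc
Vsig4, chrX:96293439-96293688, minus strand: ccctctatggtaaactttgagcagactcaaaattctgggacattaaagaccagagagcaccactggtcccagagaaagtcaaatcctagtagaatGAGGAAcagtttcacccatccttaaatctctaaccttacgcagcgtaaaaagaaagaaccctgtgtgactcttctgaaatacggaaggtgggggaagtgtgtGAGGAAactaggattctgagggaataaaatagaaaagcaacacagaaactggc
Clec4f, chr6:83656117-83656366, minus strand: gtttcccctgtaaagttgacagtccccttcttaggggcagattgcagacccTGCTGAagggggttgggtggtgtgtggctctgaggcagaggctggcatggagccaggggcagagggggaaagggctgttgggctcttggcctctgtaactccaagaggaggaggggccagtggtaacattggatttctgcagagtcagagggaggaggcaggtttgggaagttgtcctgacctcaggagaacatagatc

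The Hpgd window holds 1 GAGGAA match, Vsig4 2, and the most upstream Selenop window 1. Clec4f holds none of these and 1 TGCTGA match. The most downstream Selenop window holds 1 TATAAA match in place of GAGGAA. Another Selenop window, from a start between those printed, is not shown and holds 1 GAGGAA match. Among all 32851 RefSeq promoter windows of the same length, 23.3% hold GAGGAA, 16.1% TGCTGA and 12.4% TATAAA. The AP-1 site TGANTCA stands in 6.75% and CACGTG in 6.02% of them, and neither is in the windows printed. GC content was 56.8% for Hpgd and 57.2% for Clec4f, 43.2% for Vsig4 and 40.8% for the most upstream Selenop window, against a median of 52.4%. The matches describe letters in these windows only. Over the 9 members with an entry, which have 12 windows, GAGGAA was also found in Marco and Cd5l and not in Timd4, Folr2 or Cd163.

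The members spanned more than 3 orders of magnitude in level. On the scale of CPM per kb of exon, Selenop averaged 218 ± 83.9, Adgre1 125 ± 17.8 and Hpgd 45.0 ± 35.3 (SD, n = 8 animals). Cd5l followed at 3.63 ± 1.12, Marco at 1.84 ± 0.719, Folr2 at 0.803 ± 0.456 and Cd163 at 0.648 ± 0.228 CPM per kb. Vsig4 stood at 0.547 ± 0.405, Clec4f at 0.522 ± 0.318 and Timd4 at 0.0787 ± 0.0537 CPM per kb. Between neighbours in the order, 2 steps were free of overlap between animals. Hpgd was never below 8.23 and Cd5l never above 5.64 CPM per kb, and Clec4f was never below 0.204 and Timd4 never above 0.184 CPM per kb. The other neighbours overlapped. Selenop lay above 98.7% and Adgre1 above 97.6% of the genes in the table with an annotated length, while Timd4 lay above 5.31% of them. Selenop, Adgre1 and Hpgd together made up 97.7% to 98.9% of the members' summed CPM in each library.

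**Figure D1:**
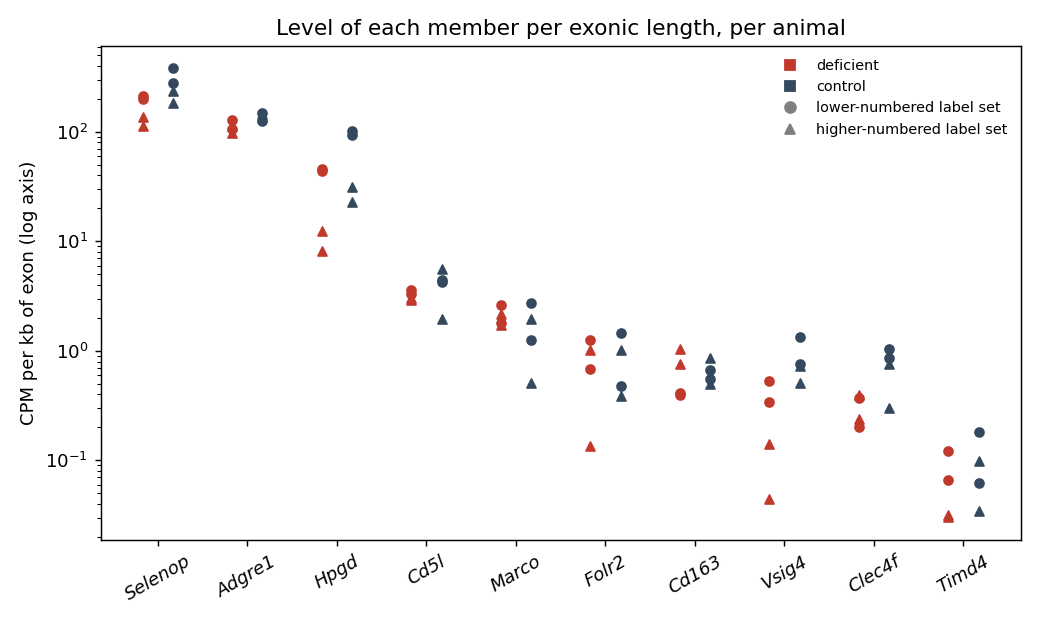
Level of each Kupffer cell marker gene in each of the 8 animals, as CPM per kb of exon on a log axis, with deficient animals left of controls and symbols for the label sets. Selenop, Adgre1 and Hpgd stand above 8.23 CPM per kb in each animal and the other 7 genes below 5.64.

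Between genotypes, the 3 abundant members Hpgd, Selenop and Adgre1 and the rare members Vsig4 and Clec4f were lower in deficient animals. At an adjusted p under 0.05, 5 of the 9 tested members fell and 0 rose, where 13.9% of all 12178 tested genes were called, 7.35% lower and 6.59% higher (edgeR quasi-likelihood test, Benjamini-Hochberg). The median log2 fold change of the 9 was -0.34, beside -0.00028 over all tested genes. Clec4f and Vsig4 reached the count filter in 4 control libraries each and in only 2 and 1 deficient libraries. They were tested because of the group in which they are high, so the count of 5 and the median support nothing beyond single genes. Over 4 and 4 animals 0 members were free of overlap between the groups, against 7.02% of tested genes, 3.40% with deficient animals lower. The count of 5 became 3 without deficient mouse 5 or 6, and 2 (Hpgd and Selenop) without deficient mouse 12 or 13 or control mouse 2 or 11. Without the label set in the model the same test called 0 of 12178 genes and 0 members, although 1519 genes and 4 members had an unadjusted p under 0.05. With 1 surrogate variable in place of the label set, 117 genes and 0 members were called, and the adjusted p of the 5 genes was 0.0762 to 0.177. In bulk RNA, fewer cells of a type and less RNA per cell cannot be told apart.

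**Figure D2:**
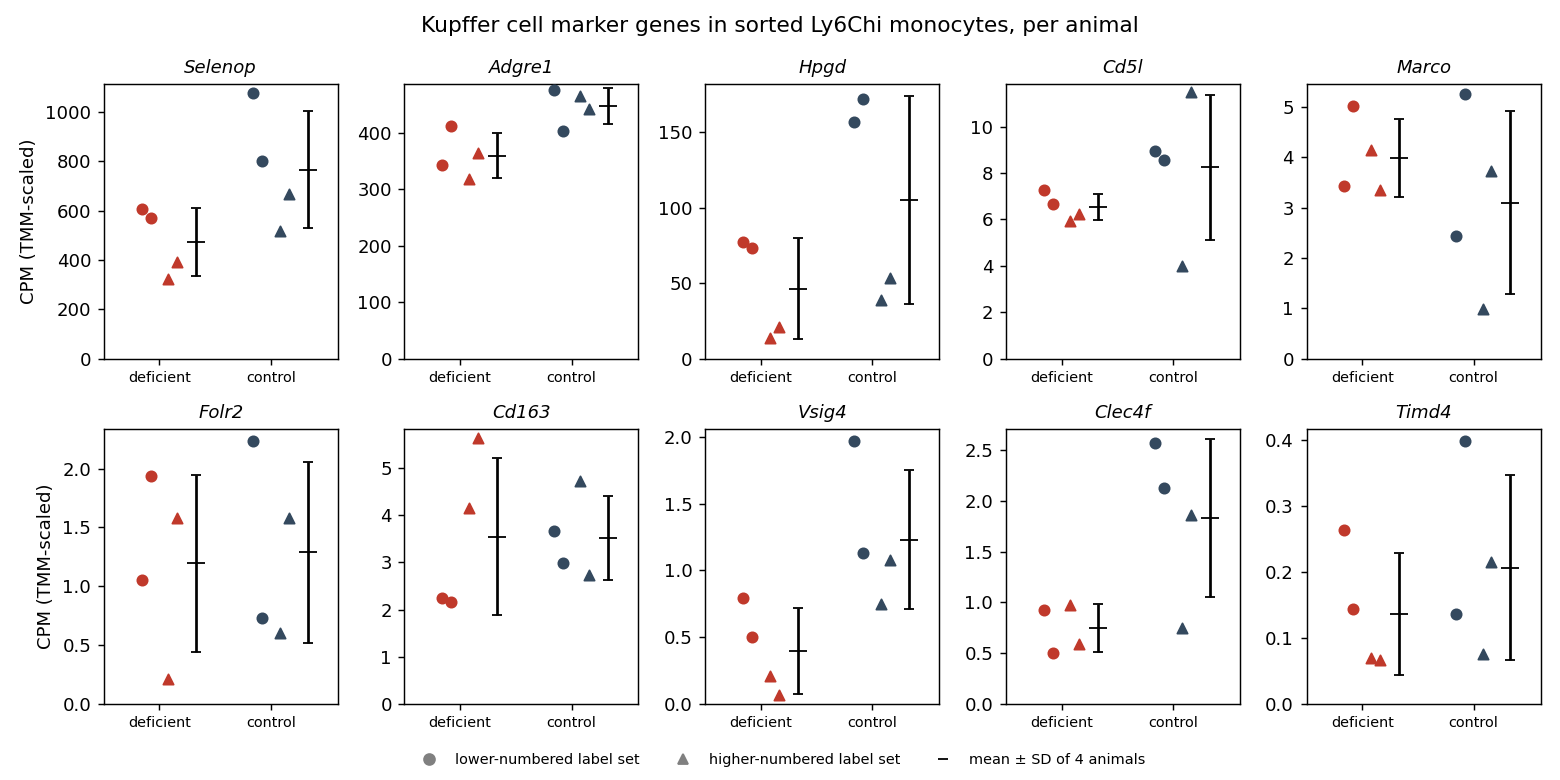
CPM of each member in each animal (circles, lower-numbered label set; triangles, higher-numbered label set), with the mean and SD of 4 animals beside each group, deficient left of control. For Hpgd and Selenop both deficient animals lie below both controls of their own label set, while Marco, Folr2 and Cd163 overlap.

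Hpgd encodes 15-hydroxyprostaglandin dehydrogenase, the enzyme that inactivates prostaglandin E2 (ENSMUSG00000031613, protein-coding, GRCm38 chromosome 8, 56294585 to 56321043, plus strand). Hpgd was at 77.1, 73.1, 13.8 and 20.9 CPM in deficient mice 5, 6, 12 and 13, and 157, 172, 38.6 and 53.3 CPM in control mice 2, 3, 10 and 11. The higher-numbered set was low in both genotypes, and the genotypes separated within each set but overlapped when the sets were pooled. The log2 fold change of Hpgd was -1.25 with an SE of 0.13 and an adjusted p of 0.00182 (edgeR). Within the lower-numbered set it was -1.13 (SE 0.18), and within the higher-numbered one -1.40 (SE 0.20). The call held when any 1 animal was left out, with adjusted p between 0.00334 and 0.00758. Without the label set the log2 fold change was -1.19 (SE 0.67, adjusted p = 0.470). With 1 surrogate variable in its place Hpgd stood at -0.56 (SE 0.13, adjusted p = 0.0762).

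Selenop encodes selenoprotein P, a secreted protein that carries selenium to other tissues (ENSMUSG00000064373, protein-coding, chromosome 15, 3268547 to 3280508, plus strand). Deficient mice 5, 6, 12 and 13 had 608, 569.8, 323 and 390.4 CPM, and control mice 2, 3, 10 and 11 had 1077, 800.3, 519 and 668 CPM. As for Hpgd, each deficient animal was below both controls of its set, and the sets overlapped across genotypes. The log2 fold change of Selenop was -0.70 with an SE of 0.12 and an adjusted p of 0.00737 (edgeR), and was -0.67 within the lower-numbered and -0.73 within the higher-numbered set. The call also held without any 1 animal, at adjusted p of 0.00509 to 0.0284. Without the label set its adjusted p was 0.363, and with 1 surrogate variable in its place the log2 fold change was -0.46 (SE 0.11, adjusted p = 0.0874). Absence of overlap within both sets, lower in deficient animals, was found for Hpgd and Selenop, and for 13.6% of all tested genes. Vsig4 showed it too, but was tested because of the group in which it is high. Its deficient libraries 12 and 13 held only 3 and 1 counts.

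Because Selenop is also a hepatocyte gene, hepatocyte transcripts were measured in the same libraries. Summed over 12 hepatocyte markers, all of them in the table and none at 0 throughout, they ranged from 89.9 to 117 CPM in deficient animals and 109 to 373 CPM in controls. Albumin (Alb) averaged 51.8 ± 9.24 CPM in deficient animals and 139 ± 55.6 CPM in controls (SD, n = 4 each), below Selenop in both groups. Their part in the Selenop difference was not tested. The exons of Selenop also overlap those of Ccdc152 on the opposite strand. Ccdc152 had 2 to 14 counts in deficient animals and 6 to 17 in controls, where Selenop had 4661 to 9220 and 6909 to 15886. Whether the counting used strand is not given in the sources used here.

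Adgre1 encodes F4/80, an adhesion G protein-coupled receptor used throughout mouse work to mark macrophages (ENSMUSG00000004730, protein-coding, chromosome 17, 57358691 to 57483527, plus strand). It varied least of the members relative to its mean, at 344, 413, 318 and 364 CPM in deficient mice 5, 6, 12 and 13 and 477, 404, 466 and 443 CPM in control mice 2, 3, 10 and 11. Deficient mouse 6 lay above control mouse 3, and the groups were otherwise apart. The log2 fold change of Adgre1 was -0.32 with an SE of 0.09 and an adjusted p of 0.0439 (edgeR), and was -0.22 within the lower-numbered and -0.41 within the higher-numbered set. The call was lost without deficient mice 5, 12 or 13 and without control mice 2, 10 or 11, with adjusted p up to 0.125, and kept its direction throughout.

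Vsig4 encodes CRIg, the complement receptor with which Kupffer cells take up C3b-coated bacteria (ENSMUSG00000044206, protein-coding, chromosome X, 96247203 to 96293438, minus strand). It had 12, 7, 3 and 1 counts in deficient mice 5, 6, 12 and 13, and 29, 17, 10 and 15 counts in control mice 2, 3, 10 and 11. In CPM these are 0.791, 0.503, 0.208 and 0.0657 in deficient animals and 1.97, 1.13, 0.751 and 1.08 in controls. The deficient animals were below the controls within each set, and deficient mouse 5 lay just above control mouse 10. The log2 fold change of Vsig4 was -1.68 with an SE of 0.41 and an adjusted p of 0.0279 (edgeR). It was -1.24 (SE 0.46) within the lower-numbered set. In the higher-numbered set both deficient libraries are at or under the floor of 3 counts, where a fitted fold depends on the prior count, so none is given. The fold over all animals includes these libraries, so its size is uncertain too. With the lower-numbered set alone the adjusted p was 0.255 (edgeR). The call was lost without deficient mice 6, 12 or 13 or control mice 2 or 11 (adjusted p up to 0.0847).

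Clec4f encodes a galactose-binding C-type lectin (ENSMUSG00000014542, protein-coding, chromosome 6, 83644542 to 83656187, minus strand). Deficient mice 5, 6, 12 and 13 had 14, 7, 14 and 9 counts (0.923, 0.503, 0.969 and 0.591 CPM). Control mice 2, 3, 10 and 11 had 38, 32, 10 and 26 counts (2.58, 2.13, 0.751 and 1.87 CPM). Control mouse 10 fell among the deficient animals and the other 3 controls lay above all 4 of them. The log2 fold change of Clec4f was -1.26 with an SE of 0.37 and an adjusted p of 0.0493 (edgeR), and was -1.70 within the lower-numbered and -0.75 within the higher-numbered set. That call held only when control mouse 10 was left out (adjusted p = 0.0191). It was lost without any other animal, with adjusted p up to 0.141, and also by limma voom (adjusted p = 0.0629) and with no count filter (adjusted p = 0.0570).

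The remaining 5 members gave no call. Timd4 encodes TIM-4, a receptor for phosphatidylserine on dying cells, and is the marker of long-resident Kupffer cells (ENSMUSG00000055546, protein-coding, chromosome 11, 46810800 to 46844332, plus strand). It had 4, 2, 1 and 1 counts in deficient mice 5, 6, 12 and 13 and 2, 6, 1 and 3 in control mice 2, 3, 10 and 11, too few in any library to pass the filter at 0.686 CPM. A difference was not detectable at this depth.

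The genes of the scavenger receptors MARCO and CD163 overlapped between the groups. Marco encodes a collagenous scavenger receptor for bacteria and particles (ENSMUSG00000026390, protein-coding, chromosome 1, 120474538 to 120505024, minus strand). It was at 3.43, 5.03, 4.15 and 3.35 CPM in deficient mice 5, 6, 12 and 13 and 2.44, 5.26, 0.976 and 3.73 CPM in control mice 2, 3, 10 and 11, so the deficient values lay inside the control range. Its log2 fold change was 0.37 (SE 0.37, adjusted p = 0.525). Cd163 encodes the receptor for haemoglobin bound to haptoglobin (ENSMUSG00000008845, protein-coding, chromosome 6, 124304656 to 124330527, plus strand). It had 2.24, 2.16, 4.15 and 5.65 CPM in deficient mice 5, 6, 12 and 13 and 3.66, 2.99, 4.73 and 2.73 CPM in control mice 2, 3, 10 and 11. In the lower-numbered set both deficient animals were below both controls (log2 fold change -0.60, SE 0.32), and in the higher-numbered set the groups overlapped (0.40, SE 0.29). With all animals it was at -0.05 (SE 0.26, adjusted p = 0.912), and the difference between the sets had an unadjusted p of 0.0486 and an adjusted p of 0.738 (edgeR quasi-likelihood, interaction term).

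Cd5l encodes a secreted scavenger-receptor cysteine-rich protein, also called AIM (ENSMUSG00000015854, protein-coding, chromosome 3, 87357881 to 87371073, plus strand). It was at 7.25, 6.68, 5.95 and 6.24 CPM in deficient mice 5, 6, 12 and 13 and 8.95, 8.58, 3.98 and 11.5 CPM in control mice 2, 3, 10 and 11. All deficient animals lay under 3 of the 4 controls and above control mouse 10. The log2 fold change was -0.34 (SE 0.26, adjusted p = 0.403), and -0.57 with adjusted p = 0.0394 without control mouse 10. That control was the lowest of its group for Cd5l, Marco, Folr2, Vsig4, Clec4f and Timd4, and for Selenop and Hpgd as well.

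Folr2 encodes the folate receptor beta of macrophages (ENSMUSG00000032725, protein-coding, chromosome 7, 101839988 to 101857194, minus strand). It had 16, 27, 3 and 24 counts in deficient mice 5, 6, 12 and 13 and 33, 11, 8 and 22 in control mice 2, 3, 10 and 11, with full overlap (log2 fold change -0.12, SE 0.55, adjusted p = 0.908). Its exons overlap the antisense gene Gm10602, which had 5 to 15 counts in deficient animals and 6 to 15 in controls, so Folr2 is uncertain at this level.

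**Figure D3:**
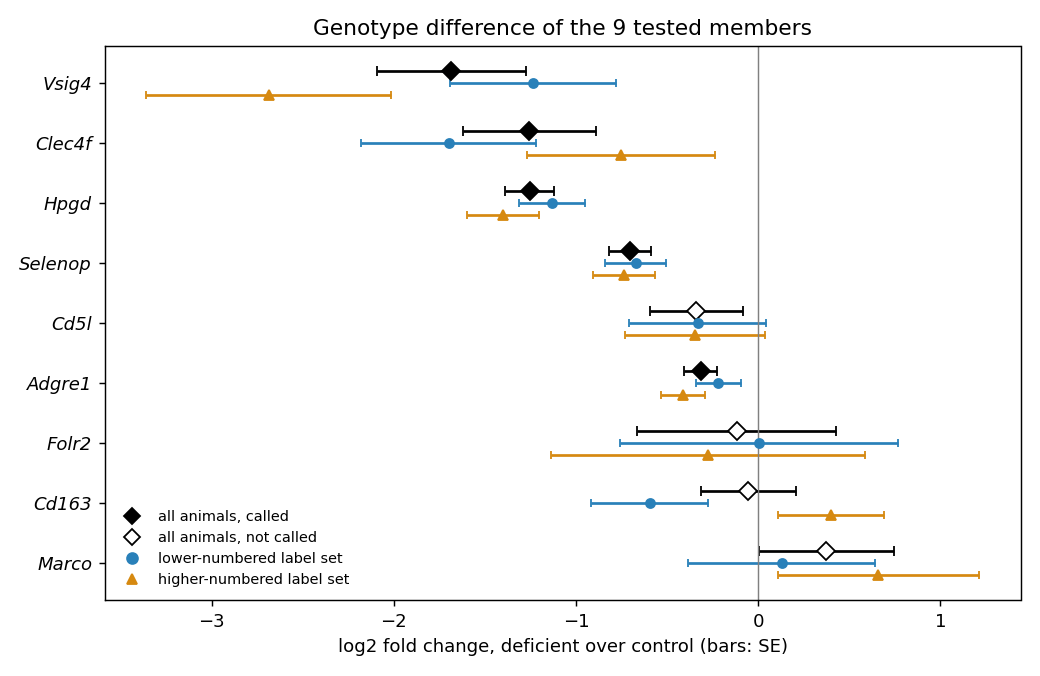
Log2 fold change, deficient over control, of the 9 tested members with SE bars, over all animals (diamonds, filled where adjusted p is under 0.05) and within the lower-numbered (circles) and higher-numbered (triangles) label sets. Vsig4, Clec4f, Hpgd, Selenop and Adgre1 are filled and lie at -1.68 to -0.32. The Vsig4 triangle rests on deficient libraries of 3 and 1 counts and is no measured fold, and the Vsig4 diamond includes these libraries.

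Between the label sets, 2 of the 9 tested members differed, Hpgd at -1.97 (log2, higher- over lower-numbered set, SE 0.14, adjusted p = 5.65e-05) and Selenop at -0.69 (SE 0.12, adjusted p = 0.00180). Both were lower in the higher-numbered set, where 36.9% of tested genes were called, 18.3% lower and 18.6% higher. Vsig4 stood at -1.14 (SE 0.40) and just missed the threshold, with an adjusted p of 0.05002. None of the 9 passed the test that the genotype difference itself differs between the sets (lowest adjusted p = 0.738), which called 5 of 12178 genes, 0.0411%.

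Members did not all vary together. Over the 8 animals, which differ in genotype and label set, the log2 CPM of Hpgd and Selenop had a Pearson correlation of 0.95, and that of Vsig4 and Selenop 0.91. Adgre1 and Selenop had one of 0.70, Clec4f and Vsig4 one of 0.75, and Marco and Selenop one of -0.02. Among the 9497 genes above the level set for this search (mean log2 CPM 2), those most like Hpgd were the ribonuclease gene Rnase6 and the lipid droplet-associated dehydrogenase gene Hsd17b11 (r = 0.998 each, 8 animals). Those most like Selenop were Cln6 and Hmox2 (0.996 each), and most like Adgre1 were Parp1 (0.990) and Pnpt1 (0.974). For the rarer members the closest were Cntln (0.939) and Ezh1 (0.931) for Clec4f, Golga1 (0.948) and Trmt112 (0.937) for Marco, and Lmbr1l (0.957) and Fam98c (0.936) for Cd5l. Dctn6 and Eml2 (0.950 each) were closest to Folr2, and Tsr2 (0.942) and Rtn4 (0.933) to Cd163. All these genes were picked as the highest of 9497 correlations over only 8 animals. Such a search also returns high values for unrelated genes, and a link between the genes was not tested.

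Transcription factors known from Kupffer cells averaged 62.5 (Smad4) to 817 CPM (Spi1) over the 8 animals and moved in both directions. Of 11 listed, all tested, 3 fell and 3 rose in deficient animals, where 7.35% of all tested genes were called lower and 6.59% higher. The factors that fell were Id3, a regulator needed for Kupffer cell development (-1.31, SE 0.29, adjusted p = 0.0205), its relative Id1 (-0.66, SE 0.09, adjusted p = 0.00410) and the macrophage factor Maf (-0.42, SE 0.11, adjusted p = 0.0361). Id3 averaged 92.9 ± 38.1 CPM in deficient animals and 228 ± 56.6 CPM in controls (SD, n = 4 each). The factors that rose were Tfec (1.11, SE 0.19, adjusted p = 0.00774), the Notch effector Rbpj (0.42, SE 0.08, adjusted p = 0.0138) and Zeb2 (0.21, SE 0.06, adjusted p = 0.0432). Nr1h3, the liver X receptor alpha of Kupffer cells, was at -0.30 (SE 0.21, adjusted p = 0.357) and Spic, a factor of iron-recycling macrophages, at 0.18 (SE 0.23, adjusted p = 0.632). With upper-quartile scaling the rise of Zeb2 was no longer called (adjusted p = 0.0624). Id1, Tfec and Rbpj were called whichever animal was left out, while the counts ranged from 1 to 3 lower and 2 to 3 higher. Only 1 fell without deficient mouse 6, control mouse 2 or control mouse 11, and 3 rose only without deficient mouse 5, 2 otherwise.

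Of 20 other genes known from Kupffer cells, 15 were in the table and 14 tested, and 4 of these fell while 0 rose. Over all tested genes 7.35% were called lower and 6.59% higher. The 4 were Axl, a receptor for clearing dead cells, and the complement genes C1qa, C1qb and C1qc, all of which macrophages of other origin also carry. Axl averaged 364 ± 171 CPM in deficient animals and 740.1 ± 230.5 CPM in controls (SD, n = 4 each). Its log2 fold change was -1.11, with an SE of 0.15 and an adjusted p of 0.00331 (edgeR). C1qa was at -0.73 (SE 0.16, adjusted p = 0.0186), C1qc at -0.61 (SE 0.14, adjusted p = 0.0233) and C1qb at -0.51 (SE 0.13, adjusted p = 0.0313). The listed genes Clec1b and Fcna were scarce and not called. Clec1b stood at 1.003 ± 0.2501 CPM in deficient animals and 1.64 ± 0.374 CPM in controls, and Fcna at 1.43 ± 0.195 and 1.74 ± 0.540 CPM (SD, n = 4 each). The iron exporter gene Slc40a1 was at 0.70 (SE 0.22, adjusted p = 0.0638). The chemokine gene Ccl24 had the largest log2 fold change of the list, 1.73 (SE 0.53, adjusted p = 0.0580), at 1071 ± 1228 CPM in deficient animals and 371 ± 469.8 CPM in controls (SD, n = 4 each). It was called higher without deficient mouse 5 or control mouse 10. The count of lower genes became 1 without deficient mouse 12 or control mouse 11 and 2 without deficient mouse 6, and Axl was called in each case.

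**Figure D4:**
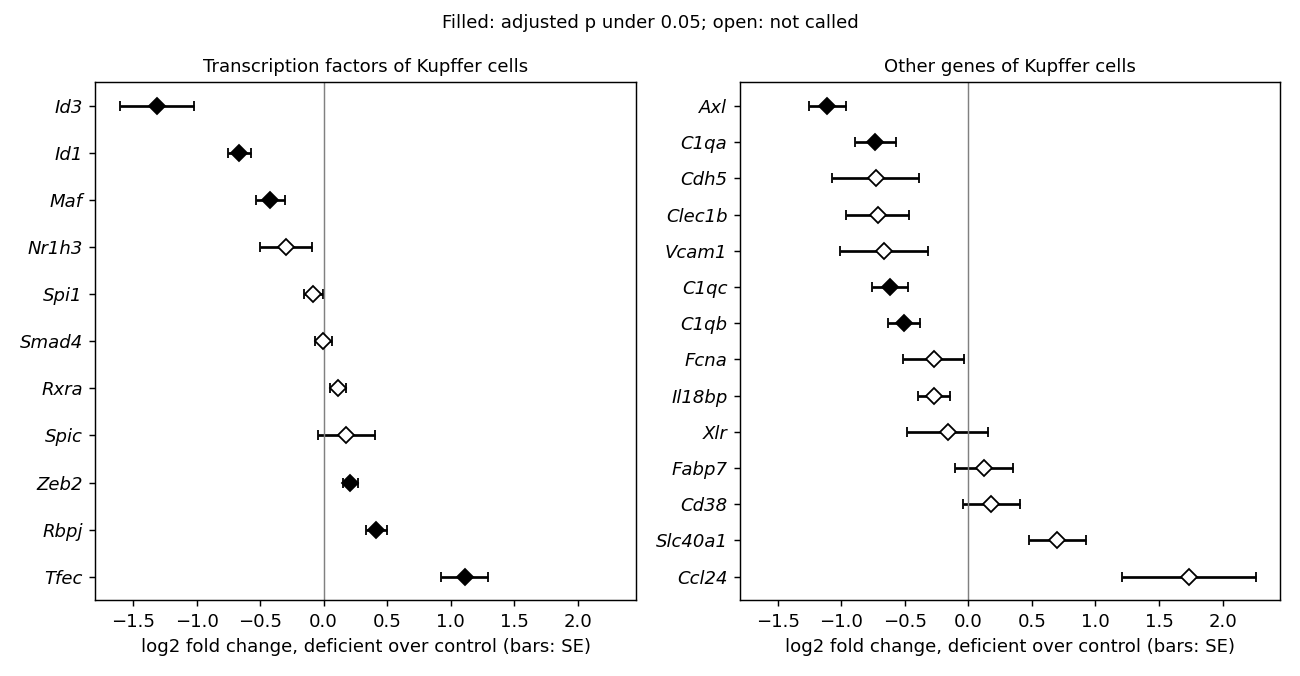
Log2 fold change, deficient over control, with SE bars, of 11 transcription factors and 14 other genes known from Kupffer cells; filled symbols have an adjusted p under 0.05. Id3, Id1, Maf, Axl, C1qa, C1qb and C1qc lie on the lower side and Tfec, Rbpj and Zeb2 on the higher side.

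Genes of monocytes that mature into macrophages were split as well. Of 16 tested, 4 fell and 2 rose, where 7.35% of all tested genes were called lower and 6.59% higher. Trem2, a lipid-sensing receptor of recruited macrophages (-0.48, SE 0.07, adjusted p = 0.00527), and the fractalkine receptor gene Cx3cr1 (-1.24, SE 0.20, adjusted p = 0.00673) fell, as did Apoe and Csf1r, and the tetraspanin gene Cd9 rose (0.70, SE 0.12, adjusted p = 0.00774) with Cd63. Of 12 genes of Ly6Chi monocytes, 2 fell and 4 rose. Plac8 (-0.55, SE 0.07, adjusted p = 0.00312) and Ms4a4c (-0.61, SE 0.09, adjusted p = 0.00584) fell, and the integrin gene Itgam rose (0.62, SE 0.12, adjusted p = 0.0112) with F13a1, Fn1 and Vcan. In the list of maturing cells 2 genes fell without deficient mice 6 or 12 or control mice 2 or 11, and 1 rose without deficient mouse 12.

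Genes listed as markers of other cells were compared in the same libraries. Over all tested genes 13.9% were called, 7.35% lower and 6.59% higher, which is the share to set beside each count. The cells that the listed transcripts came from, and their part in the members' values, were not tested. Of 11 tested hepatocyte genes 6 fell and 0 rose, among them Alb (-1.37, SE 0.27, adjusted p = 0.0131), Serpina1c (-1.21, SE 0.27, adjusted p = 0.0190) and Ahsg (-1.13, SE 0.30, adjusted p = 0.0351). That count was 1 without deficient mouse 12 or control mice 3 or 11 and 2 without deficient mice 6 or 13. It includes Apoc3, which averaged 0.623 CPM in deficient animals, under the filter level of 0.686 CPM, and 1.75 CPM in controls. Apoc3 may have been tested because of the group in which it is high. Of 10 endothelial genes 2 fell, Clec4g (-2.08, SE 0.49, adjusted p = 0.0252) and Eng (-0.73, SE 0.19, adjusted p = 0.0325), and 0 rose. The endothelial count was 8 without control mouse 10, 1 without control mouse 2, and 0 without deficient mice 6, 12 or 13 or control mouse 3. Of the 10, 9 had a negative log2 fold change, with a median of -0.93 over the list, and Pecam1 alone was positive (1.21, SE 0.44, adjusted p = 0.100). The endothelial sum overlapped, at 50.8 to 222 CPM in deficient animals and 65.9 to 248 CPM in controls. Pecam1, which leucocytes also carry, averaged 90.6 ± 69.03 CPM in deficient animals and 44.6 ± 43.5 CPM in controls (SD, n = 4 each) and was the most abundant gene of that sum. Of 7 tested neutrophil genes 4 rose and 0 fell, namely S100a8 (3.10, SE 0.26, adjusted p = 9.69e-04), Lcn2 (2.15, SE 0.24, adjusted p = 0.00193), S100a9 (2.72, SE 0.33, adjusted p = 0.00227) and Mmp8. The neutrophil genes Ly6g and Camp were not among the genes of the table, and Ngp, a granule protein gene, was at 0.709 ± 0.693 CPM in deficient animals and 0.799 ± 0.680 CPM in controls (log2 fold change -0.13, SE 0.89, adjusted p = 0.936). Over the 11 neutrophil genes in the table the sum was 682 to 929.7 CPM in deficient animals and 419 to 637 CPM in controls. Its most abundant gene, Csf3r, averaged 313 ± 45.2 CPM in deficient animals and 358 ± 40.4 CPM in controls (log2 fold change -0.20, SE 0.11, adjusted p = 0.263).

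Of 7 tested dendritic cell genes 3 fell and 0 rose, Flt3 (-1.19, SE 0.22, adjusted p = 0.00984), Clec9a (-1.25, SE 0.32, adjusted p = 0.0335) and Cd209a (-0.89, SE 0.24, adjusted p = 0.0393). For this list and those below, the share over all tested genes is 7.35% lower and 6.59% higher. Clec9a averaged 0.472 CPM in deficient animals, under the filter level of 0.686 CPM, and 1.16 CPM in controls. It may have been tested because of the group in which it is high. The dendritic count was 1 without deficient mice 5 or 12 or control mice 2, 3 or 11. The sum over 9 dendritic cell genes was 28.8 to 66.4 CPM in deficient animals and 47.7 to 86.5 CPM in controls. Among markers of peritoneal macrophages, which share Timd4 with Kupffer cells, the defining factor Gata6 was not among the genes of the table. Of 5 tested 1 rose, the fatty acid-binding gene Fabp4 (0.68, SE 0.17, adjusted p = 0.0317), and 0 fell. Fabp4 was not called without deficient mouse 12 or control mice 2, 3 or 10. No lymphocyte gene of 5 tested, no stellate cell gene of 2 and no erythroid or platelet gene of 4 was called at an adjusted p under 0.05 (edgeR quasi-likelihood), and 2 lymphocyte genes fell without control mouse 10. At an unadjusted p under 0.05 there was 1 lymphocyte gene and 0 of the other 2 lists. The 2 lymphocyte genes of highest level were the B cell gene Cd79a at 1.86 ± 0.603 CPM in deficient animals and 3.26 ± 1.25 CPM in controls, and the natural killer cell gene Klrb1c at 2.001 ± 0.709 and 1.58 ± 0.703 CPM (SD, n = 4 each). The stellate cell genes Pdgfrb, at 1.81 ± 1.35 CPM in deficient animals and 1.57 ± 0.675 CPM in controls, and Dcn, at 0.658 ± 0.549 and 0.929 ± 0.713 CPM, were as scarce. The platelet factor gene Pf4 stood at 83.4 ± 50.8 CPM in deficient animals and 50.8 ± 19.9 CPM in controls, and the haemoglobin gene Hbb-bs at 2.66 ± 1.31 and 2.27 ± 1.57 CPM (SD, n = 4 each).

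**Figure D5:**
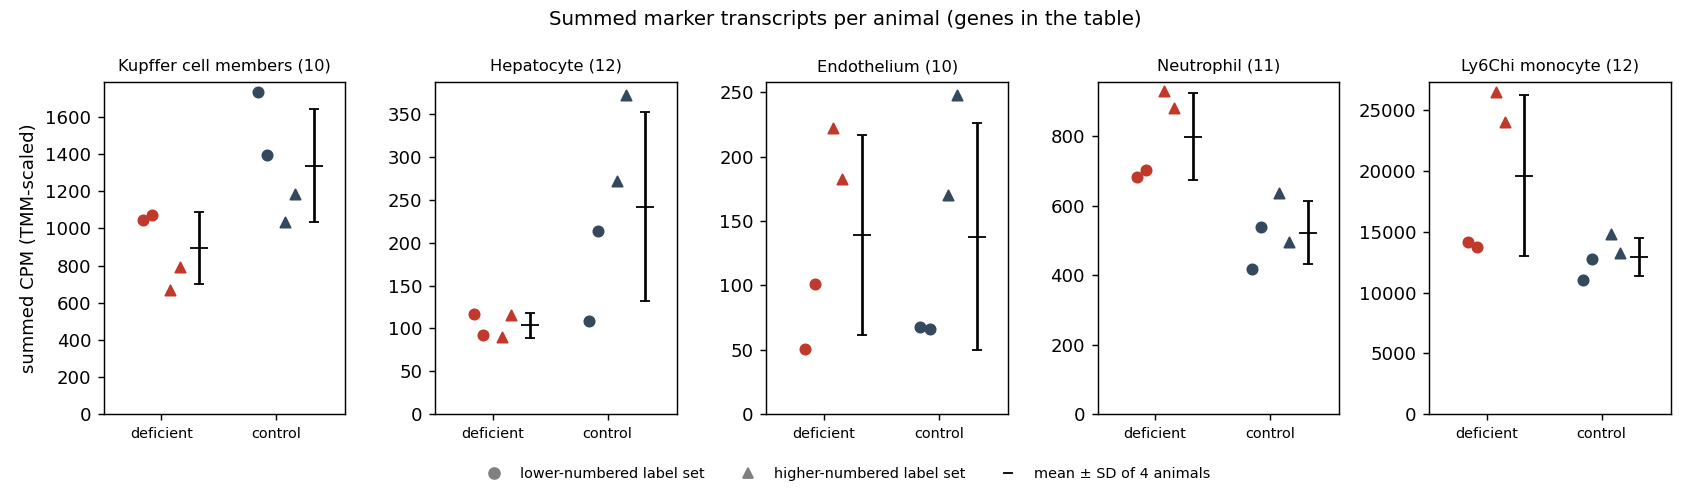
Summed CPM of the 10 members and of hepatocyte, endothelial, neutrophil and Ly6Chi monocyte markers in each animal, deficient left of control, with the mean and SD of 4 animals. The members' sum is 671 to 1073 CPM in deficient animals and 1035 to 1733 CPM in controls, and the neutrophil sum of 682 to 929.7 CPM in deficient animals lies above the 419 to 637 CPM of controls.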

How the data were processed

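The authors deposited raw counts per gene, 1 column per animal, per the file headers, and the 8 normalised columns beside them were not used here. The tools named, per the submitters' processing notes and with no role given, are STAR 2.7.3a, HTSeq 0.12.4, cutadapt and DESeq2 1.26.0, and the build is GRCm38. Strandedness is not given in the sources used here. The table has 15337 rows, 15336 genes and 1 cre transgene, which was kept out of library sizes and tests. Positions and exonic lengths come from GENCODE M21 (GRCm38), and promoter sequences from RefSeq.

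The tests used edgeR 4.0.16 under R 4.3.3. Its filterByExpr function, given the groups, chose the genes (minimum count 10, minimum total 15), which left 12178 and removed 3158. Libraries were scaled by the trimmed mean of M-values (TMM, factors 0.944 to 1.03). The genotypes were compared with the quasi-likelihood F-test, two-sided, in a model holding the label set, and with Benjamini-Hochberg adjustment over all genes tested. The SE given with an edgeR fold change was derived from this test, as the absolute log2 fold change divided by the square root of F. Log2 CPM has a prior count of 2. Fold changes within a label set come from the model with the interaction term. The code was tested on simulated data with planted changes.

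The member list was given at the outset. The 12 other lists, and the use of the label set, were chosen with earlier results of these data known. Besides all members, the text names up to 3 called genes of each list by smallest p, or the 2 of highest CPM where none was called, and the 2 genes most correlated with each member of mean log2 CPM of at least 0. The other genes of the lists on Kupffer cells, monocytes and macrophages, and of short counts, were chosen after their values were seen. Alternatives were DESeq2 1.42.0, limma voom (limma 3.58.1), 1 surrogate variable (sva 3.50.0), other scalings, filters and thresholds, each label set alone, and leaving out each animal. Lists were recounted under other scalings and without each animal after the data were seen. A few genes of these lists are not reported here and were left out of the list counts. The floor of 3 counts covers counting error only, as the reads carry no stated molecular identifiers.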

Additional observations from a re-analysis of the deposited data

How the results depend on the processing

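No paired analysis was possible because no animal number occurs in both groups. The number of genes called between genotypes, 1697 with the label set in the model, was 0 without it (1519 at an unadjusted p under 0.05), 117 with 1 surrogate variable in its place, 409 at an adjusted p under 0.01, 2718 under 0.1, and with a single label set 46 (lower-numbered) and 646 (higher-numbered). It ranged from 697 to 1685 when 1 animal was left out. The number of members called, 5, was 0 without the label set and 0 with the surrogate variable (4 and 5 at an unadjusted p under 0.05, edgeR). It was 3 with at least 5 CPM in 4 libraries, where Clec4f and Vsig4 were not tested, 2 at an adjusted p under 0.01, 1 in the lower-numbered set alone (Hpgd), and 2 in the higher-numbered set alone and in the lowest of the leave-one-out runs (Hpgd and Selenop), whose range was 2 to 5. DESeq2 called 4, and gave no adjusted p for Vsig4.

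The label set difference stayed within 1.5 times its count under all alternatives run on it. The interaction called 5 genes, 65 by DESeq2, 1 with the stricter filter and 0 to 1 without 1 animal (618 to 972 at an unadjusted p under 0.05).

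Cd163, at -0.05, turned to 0.0123 without the label set, 0.0167 by limma voom and 0.40 in the higher-numbered set alone, and ranged from -0.30 to 0.0937 without 1 animal. Folr2, at -0.12, turned to 0.0796 with the surrogate variable and 0.0047 in the lower-numbered set alone, and ranged from -0.53 to 0.24. The cause was not tested. The other 7 tested members kept their direction under each alternative that tested them. Division by exonic length moved the ranks of Clec4f, Vsig4, Folr2 and Cd163 and of no other member. Vsig4, Clec4f and Timd4, at 1 to 38 counts a library, are limited by depth.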
